A study of Mus musculus with 4 samples.

Results

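The SOCS and PIM genes followed here are the 7 members *Socs1*, *Socs2*, *Socs3*, *Cish*, *Pim1*, *Pim2* and *Pim3*, chosen by symbol from the 13265 genes of a single-cell RNA sequencing (scRNA-seq) table of 5080 intestinal CD4+ T cells. All 7 were present. The cells were sorted as YFP+ and CD4+ from small intestines of mice aged 7 to 8 months that carry *Il17a-cre* and a Cre-dependent YFP reporter, so that YFP marks cells that have expressed *Il17a* at some time. Every group carried the Cre and the reporter (strain label Il-17a-CRE). TGFβR-KO mice carried floxed alleles of *Tgfbr2* that are deleted in these cells, TGFβR-CA mice (labelled RCA) carried a constitutively active *Tgfbr1* behind a floxed stop cassette, and TGFβR-WT mice carried neither. The 4 samples were pools of mice, 1 of TGFβR-KO, 1 of TGFβR-CA and 2 of TGFβR-WT. The comparisons ask how the feedback genes of cytokine signaling differ when T cells with a history of *Il17a* expression lose TGFβ signaling or receive it constitutively.

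Cytokine receptors of T cells signal through Janus kinases (JAKs), which phosphorylate STAT transcription factors. STATs in turn switch on genes that feed back on the pathway. *Socs1* and *Socs3* encode suppressors that block JAK activity, *Socs1* chiefly downstream of interferons and receptors of the common γ chain and *Socs3* downstream of receptors that use gp130. *Cish* and *Socs2* encode relatives that are classical targets of STAT5, induced for example by IL-2 and growth hormone. *Pim1*, *Pim2* and *Pim3* encode serine/threonine kinases without a regulatory subunit, whose activity follows their amount, and which promote survival and protein synthesis. *Pim1* is a STAT3 and STAT5 target and is also induced by T cell receptor and NF-κB signals.

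On the GRCm38 assembly, also called mm10, GENCODE places *Socs1* at chr16:10782240-10785536, *Socs2* at chr10:95385362-95417180, *Socs3* at chr11:117966079-117970047, all on the minus strand, and *Cish* at chr9:107296026-107302784, *Pim1* at chr17:29490753-29496112, *Pim2* at chrX:7878262-7883432 and *Pim3* at chr15:88862186-88865726 on the plus strand. *Pim1* overlaps *Gm26885* on the opposite strand, which held 6 UMIs in TGFβR-KO cells and 0 in all other cells, which allows up to 3 UMIs in each set. *Cish* overlaps *Gm17040* and *Gm17041*, which were not among the genes of the table. RefSeq promoters (GRCm38.p6) were matched by symbol for 6 of the 7 members, all but *Socs2*. They are shown because they are the stretches in which STAT and interferon response motifs of feedback genes are usually sought, for the genes with such a match and for a pair of genes that shared their pattern across clusters. Only the upstream bases that no annotated exon of the gene covers are printed, from 5′ to 3′ on the gene's strand, and capitals mark a motif. That left chr11:117969452-117969616 for *Socs3*, chr16:10785537-10785786 for *Socs1*, chr17:29490535-29490752 for *Pim1* and chr15:88861944-88862185 for *Pim3*. The window of *Cish* lay within an annotated exon and is not printed.
Socs3: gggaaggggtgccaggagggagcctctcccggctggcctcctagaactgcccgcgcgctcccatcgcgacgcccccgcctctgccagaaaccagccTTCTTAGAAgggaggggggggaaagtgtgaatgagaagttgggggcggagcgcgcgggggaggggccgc
Socs1: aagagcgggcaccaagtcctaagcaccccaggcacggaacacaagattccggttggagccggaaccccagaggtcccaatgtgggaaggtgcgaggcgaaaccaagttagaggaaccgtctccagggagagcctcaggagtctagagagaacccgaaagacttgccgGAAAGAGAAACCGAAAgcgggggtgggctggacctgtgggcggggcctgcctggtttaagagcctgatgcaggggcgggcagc
Pim1: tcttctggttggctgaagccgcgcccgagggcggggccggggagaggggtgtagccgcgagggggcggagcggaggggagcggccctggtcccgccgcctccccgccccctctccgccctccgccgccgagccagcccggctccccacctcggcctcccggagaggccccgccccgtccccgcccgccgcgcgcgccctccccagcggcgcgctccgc
Pim3: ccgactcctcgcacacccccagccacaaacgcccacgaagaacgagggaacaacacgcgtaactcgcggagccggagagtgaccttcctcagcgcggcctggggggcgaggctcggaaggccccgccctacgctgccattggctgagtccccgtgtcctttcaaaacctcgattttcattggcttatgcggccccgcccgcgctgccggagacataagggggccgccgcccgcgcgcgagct

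In the 250 bases before each of 32851 mouse RefSeq starts, the palindrome TTCNNNGAA to which STATs bind (GAS, searched on both strands like the motifs that follow) was found in 7.02% of promoters. Among the 6 matched members it was found only in *Socs3*, as TTCTTAGAA, with its first base 154 bases before the start. The interferon response motif, read as GAAA, any 2 bases and GAAA, was found in 2.98% of promoters and among the members only in *Socs1*, as GAAAGAGAAA and GAAACCGAAA that start 83 and 77 bases before the start and overlap each other. This motif was added after the sequences had been read. The AP-1 motif TGANTCA (6.75% of promoters) and the κB motif, read as GGGA, any base and TTTCC (0.356%), were found in none of the members. A match is a description of these letters only, and a site outside the window would not be seen. The window of *Cish* lay within an annotated exon, so the bases before its GENCODE start were not searched.

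The table held 2975 TGFβR-KO cells, 1007 TGFβR-WT cells and 1098 TGFβR-CA cells. Suffixes of the cell names divide TGFβR-WT into 709 cells (the larger set) and 298 cells (the smaller set), which could not be tied to the 2 TGFβR-WT samples or to the sequencing batches, and the methods place TGFβR-KO and TGFβR-CA in different batches, each with TGFβR-WT. TGFβR-KO and TGFβR-CA were 1 sample each and the TGFβR-WT cells could not be assigned to their 2 samples or to a batch, so no test between conditions was made and batch and condition cannot be told apart in these values. A member was called higher or lower by size, when its level was at least 1.5 times above or below both TGFβR-WT sets. A level is the sum of corrected unique molecular identifiers (UMIs) of a gene per 10000 corrected UMIs of the group. Intervals of shares and ratios are exact 95% intervals that cover counting error only and take corrected UMIs as counts. Corrected UMIs per cell had medians of 3440 to 3984 across the 4 sets. Genes of the T cell list (*Cd3e*, *Cd3d*, *Cd4*, *Trac*) summed to 39.3 to 49.3 per 10000 and were above 0 in 99.9% to 100% of cells of each set, while epithelial genes summed to 0.168 to 0.317, B cell genes to 0.0165 to 0.271 and myeloid genes to 1.86 to 2.18, with *Csf1r* and *Adgre1* absent from the table. Epithelial genes were above 0 in 4.91% to 10.1% of cells of each set, B cell genes in 0.671% to 3.67% and myeloid genes in 46.4% to 52.35%. The myeloid genes in the table were *Lyz2*, *Cst3* and *Itgax*, the most widespread of these lists. Since nearly all cells held T cell genes too, a UMI of such a list does not mark a cell as another cell type. The list of regulatory T cell genes differed between the genotypes, with a summed level of 1.36 in TGFβR-KO cells, 3.77 and 3.03 in the TGFβR-WT sets and 3.73 in TGFβR-CA cells. It was above 0 in 25.2% of TGFβR-KO cells and in 50.6%, 50% and 58.7% of the others, and its part in the results was not tested. *Tgfbr2* stood at 1.48 in TGFβR-KO cells, 1.72 and 1.76 in the TGFβR-WT sets and 1.78 in TGFβR-CA cells, and a 3′ tag need not fall in the deleted part, so it does not check the label. The TGFβ target *Pmepa1* stood at 0.113 in TGFβR-KO cells, at 0.842 and 1.26 in TGFβR-WT cells and at 0.746 in TGFβR-CA cells. Of 9 TGFβ response genes, 0 were called higher and 1 lower in TGFβR-CA cells, with a median log2 ratio of -0.27.

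Over all cells, TGFβR-KO had more *Pim1* and more *Socs3* than both TGFβR-WT sets. Neither call held under every alternative. The *Pim1* ratio fell to 0.901 once 5 clusters were weighted as in TGFβR-WT. *Socs3* was not called without the cells that held a UMI of another cell type's marker (ratio to pooled TGFβR-WT 1.65). That alternative left out 1569 of the 2975 TGFβR-KO cells. *Pim1* stood at 4.45 per 10000 in TGFβR-KO cells, at 2.42 and 2.72 in the larger and smaller TGFβR-WT sets and at 1.97 in TGFβR-CA cells. The TGFβR-KO level was thus 1.84 and 1.64 times those of the 2 TGFβR-WT sets, and 1.77 times that of pooled TGFβR-WT cells (interval 1.65 to 1.89). The share of cells with *Pim1* moved far less, with 47.6% (interval 45.8 to 49.4) of TGFβR-KO cells, 41.8% and 40.6% of the TGFβR-WT sets and 35.3% of TGFβR-CA cells, so that the ratio of shares was 1.15 and no longer a call. What differed was the number of *Pim1* UMIs in a cell that had any, 3.60 on average in TGFβR-KO cells against 2.05 and 2.73 in TGFβR-WT cells and 2.23 in TGFβR-CA cells.

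*Socs3*, the feedback inhibitor of gp130 receptors, was higher in TGFβR-KO cells by both measures. Its level was 0.677 in TGFβR-KO cells, 0.435 and 0.379 in TGFβR-WT cells and 0.655 in TGFβR-CA cells, which is 1.56 and 1.79 times the TGFβR-WT sets for TGFβR-KO. *Socs3* was detected in 17.3% of TGFβR-KO cells (interval 15.9 to 18.7) against 10.9% and 11.4% in the TGFβR-WT sets. These were the 2 of the 6 members with at least 200 corrected UMIs that were called higher, where 2.94% of the 7490 such genes were, and no member was called lower, where 5.43% of genes were. *Socs2*, with 88 UMIs in all cells, is not among these genes. The median gene stood at a log2 ratio of -0.17 in TGFβR-KO against pooled TGFβR-WT cells and at -0.11 in TGFβR-CA cells, against which these ratios should be read.

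*Cish* and *Pim3* differed between the TGFβR-WT sets themselves, the smaller at 1.95 and 2.07 times the larger, and were not called. *Cish* stood at 0.611 in TGFβR-KO cells, at 0.283 and 0.552 in the larger and smaller TGFβR-WT sets and at 0.294 in TGFβR-CA cells. *Pim3* stood at 0.362 in TGFβR-KO cells, at 0.132 and 0.272 in the TGFβR-WT sets and at 0.253 in TGFβR-CA cells. Both were thus above the larger set (2.16 and 2.75 times) and nearer the smaller one (1.11 and 1.33 times, with intervals of 0.860 to 1.44 and 0.932 to 1.96). *Pim2* had the opposite order of the sets, with 0.411 in TGFβR-KO cells, 0.319 and 0.115 in TGFβR-WT cells and 0.244 in TGFβR-CA cells. *Socs1*, at 0.909, 0.710, 1.09 and 0.774 in the same order, and *Socs2*, at 0.0348, 0.0439, 0.0742 and 0.0639 from 40, 11, 9 and 28 UMIs, did not separate the genotypes from both sets.

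**Figure D1:**
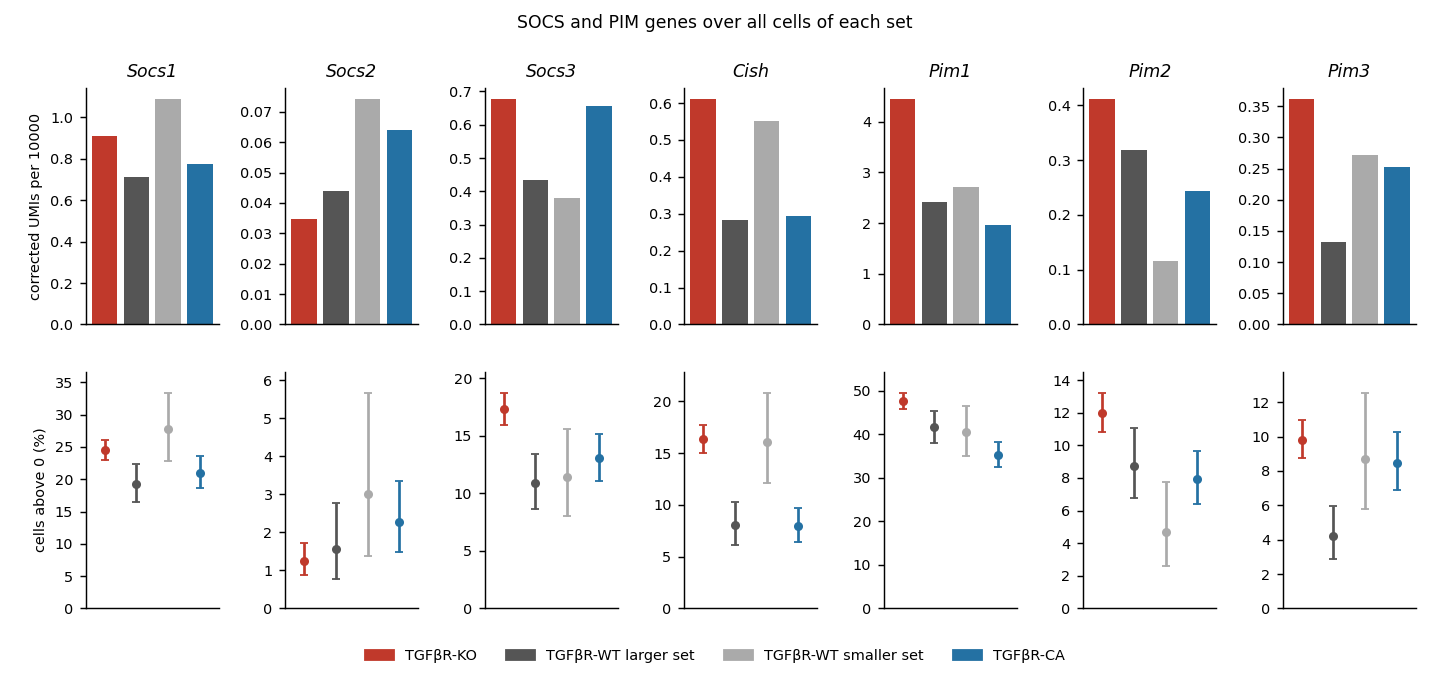
The 7 members over all cells of TGFβR-KO, the larger and the smaller TGFβR-WT set and TGFβR-CA, with the level in corrected UMIs per 10000 as bars (upper row, 1 value a set and no error bar) and the share of cells above 0 in percent as points with exact 95% intervals (lower row). *Pim1* reached 4.45 in TGFβR-KO against 1.97 to 2.72 elsewhere, and *Socs3* stood at 0.677 and 0.655 in TGFβR-KO and TGFβR-CA against 0.435 and 0.379 in the TGFβR-WT sets.

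In TGFβR-CA cells, *Socs3* alone was called higher, at 1.51 and 1.73 times the TGFβR-WT sets, where 1.23% of genes were higher and 2.74% lower. The share of cells with *Socs3* was 13.0% (interval 11.1 to 15.2) and overlapped that of both TGFβR-WT sets, and the ratio of shares was 1.18, which is no call. Its extra UMIs came from few cells: 8 TGFβR-CA cells with at least 6 *Socs3* UMIs each held 24.4% of the group's 287 UMIs, and the highest held 16. In TGFβR-KO, 8 cells with at least 6 UMIs held 6.82% of 777 UMIs. *Socs3* was thus higher in both genotypes, with more positive cells in TGFβR-KO and more UMIs per positive cell in TGFβR-CA (2.01 against 1.51 in TGFβR-KO and 1.42 and 1.35 in TGFβR-WT). The TGFβR-CA call was lost when the 32 cells with a barcode seen in several sets were left out (ratio to pooled TGFβR-WT 1.55). *Pim1* was 0.814 and 0.725 times the TGFβR-WT sets in TGFβR-CA cells, below both but short of a call. The mitochondrial share was 0.672% of UMIs in TGFβR-CA cells and 1.12% to 1.29% in the other sets, and its part in these results was not tested.

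The authors sorted the cells into 8 clusters by their expression and named them. Since the members' own values may have shaped the clusters, differences between clusters are given as a description, and *Pim1* is among the genes by which the study described the tumorigenic cluster in these cells. *Pim1*, *Cish* and *Pim3* had their highest TGFβR-KO level in the tumorigenic cluster, which held 361 TGFβR-KO cells, 5 TGFβR-WT cells and 2 TGFβR-CA cells. *Pim1* stood there at 16.9 per 10000 and was 6.24 times the other TGFβR-KO cells, *Pim3* stood at 1.25 (5.30 times) and *Cish* at 1.99 (4.77 times). *Socs3* (1.03 times), *Pim2* (1.12 times), *Socs1* (0.739 times) and *Socs2* (0.792 times, from 4 UMIs in the cluster) did not part the tumorigenic cluster from the rest by 1.5. Of the 7490 genes, 6.42% were at least 1.5 times higher in the tumorigenic cluster and 26.0% lower, and 3 and 0 of the 6 members were.

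In TGFβR-KO cells, the clusters differed stepwise in *Pim1*. It was detected in 95.3% of tumorigenic cells (interval 92.6 to 97.2) and in 76.5% of pre-tumorigenic cells (70.5 to 81.8), whose level was 9.50. Activated cells had it in 52.2%, cycling cells in 48.1% and migratory cells in 44.9%, and these 3 shares did not differ beyond their intervals. CTL cells had it in 35.5%, GC-TFH cells in 26.7% and TR-TFH cells in 23.5% (19.9 to 27.4), at a level of 0.970. All cells of the table are T cells, so no cell type that should lack *Pim1* sets a background of free RNA, and the TR-TFH share is the lowest to set the others against (median corrected UMIs per cell 3575, against 3940 in tumorigenic cells). The median tumorigenic cell held 5 *Pim1* UMIs, and 59.3% of these cells held 5 or more, against 33.0% of pre-tumorigenic, 16.9% of cycling and at most 5.97% of the other TGFβR-KO clusters.

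**Figure D2:**
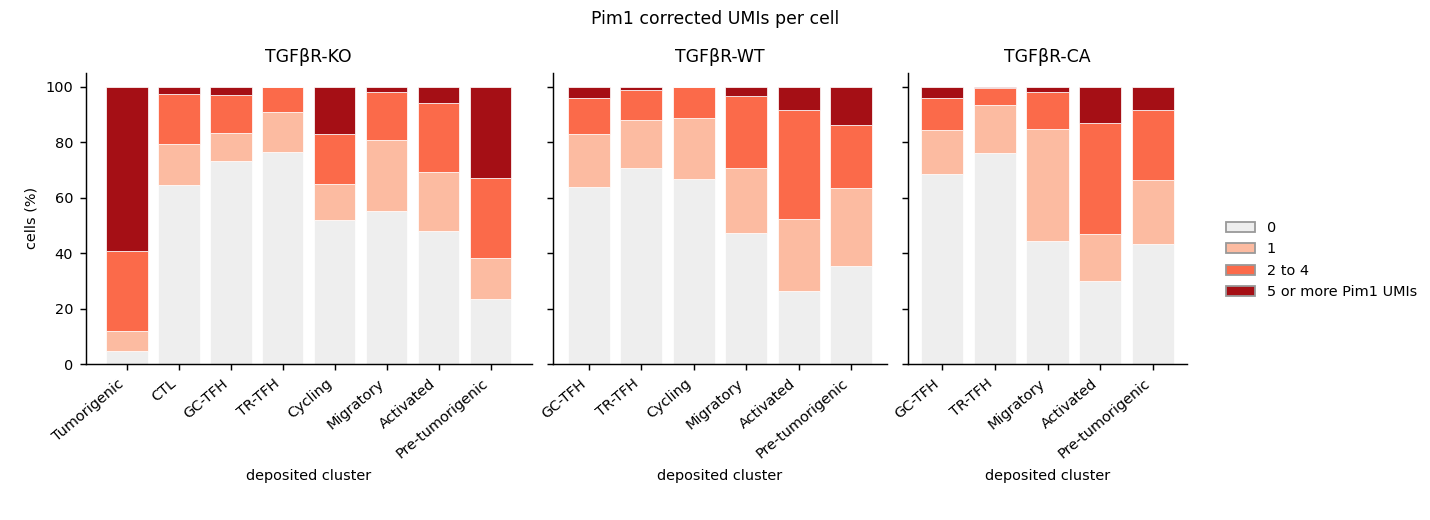
Share of cells (percent) with 0, 1, 2 to 4 or 5 or more corrected *Pim1* UMIs in each deposited cluster with at least 20 cells, for TGFβR-KO, pooled TGFβR-WT and TGFβR-CA. The share with 5 or more was 59.3% in the tumorigenic and 33.0% in the pre-tumorigenic cluster of TGFβR-KO, and at most 13.9% in any TGFβR-WT or TGFβR-CA cluster.

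*Cish* and *Pim3* followed the same order at the top. The tumorigenic level was 1.78 times the pre-tumorigenic one for *Pim1*, 1.41 times for *Cish* and 1.15 times for *Pim3*. *Cish* was detected in 46.3% of tumorigenic and 32.6% of pre-tumorigenic TGFβR-KO cells, 23.4% of cycling cells and 2.70% of TR-TFH cells (level 0.0882). *Pim3* was detected in 30.5% and 21.3% of the tumorigenic and pre-tumorigenic cells and in 3.85% of TR-TFH cells (level 0.109). The tumorigenic cluster was 12.1% of TGFβR-KO cells but held 46.7% of their *Pim1* UMIs, 42.7% of their *Pim3* UMIs and 40.1% of their *Cish* UMIs. The 5 TGFβR-WT cells of that cluster all had *Pim1*, at 14.6 per 10000 from 29 UMIs, with *Cish* at 2.52 and *Pim3* at 2.02 from 5 and 4 UMIs. Among the TGFβR-WT and TGFβR-CA clusters with at least 20 cells, *Pim1* and *Cish* were highest in the activated and pre-tumorigenic clusters and *Pim3* in the pre-tumorigenic cluster. *Pim1* stood at 5.13 in activated and 5.02 in pre-tumorigenic TGFβR-WT cells, which did not differ by more than the 2 TGFβR-WT sets did, and at 5.41 and 4.20 in TGFβR-CA cells. The 20 immediate early and dissociation genes moved with these clusters, with a summed level of 222 in tumorigenic and 490 in pre-tumorigenic TGFβR-KO cells, 326 in pre-tumorigenic TGFβR-WT cells and 44.4 to 80.4 in the other TGFβR-KO clusters, and their part in the result was not tested.

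**Figure D3:**
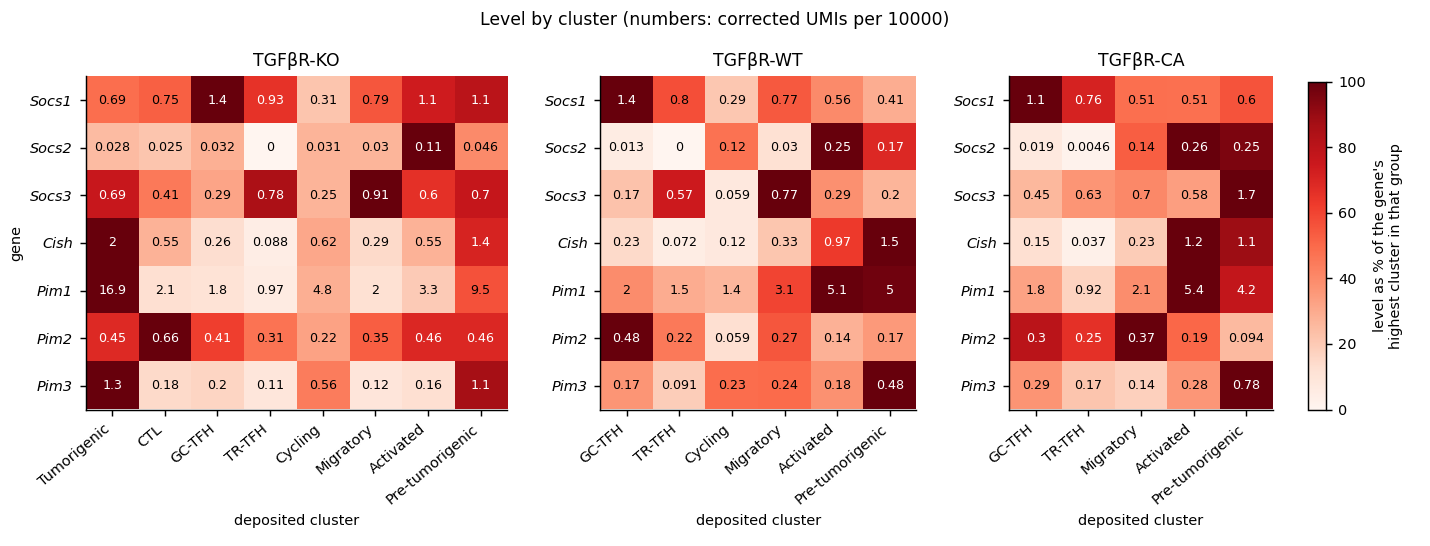
Level of each member in the deposited clusters with at least 20 cells in TGFβR-KO, pooled TGFβR-WT and TGFβR-CA, with the number in corrected UMIs per 10000 and the color as a percent of the gene's highest cluster in that group. *Pim1*, *Cish* and *Pim3* peak in the tumorigenic cluster of TGFβR-KO, *Socs1* in GC-TFH cells and *Socs2* in activated cells of all 3 groups.

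*Socs1*, the inhibitor of interferon signaling, had another pattern, with its highest level in GC-TFH cells of all 3 groups among clusters with at least 20 cells. It stood there at 1.43 in TGFβR-KO cells, 1.29 and 1.66 in the TGFβR-WT sets and 1.06 in TGFβR-CA cells, and was detected in 34.9%, 33.3%, 41.4% and 27.8% of cells. In TGFβR-KO cells the pre-tumorigenic (1.15) and activated clusters (1.05) came next, and the tumorigenic (0.694) and cycling clusters (0.310) last. In TGFβR-WT cells, TR-TFH cells (0.803) came next and the pre-tumorigenic cluster stood at 0.410.

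*Socs3* was highest in the migratory, stem cell-like cluster of TGFβR-KO (0.915, 23.3% of cells) and TGFβR-WT (0.769, 16.9% of cells), followed by TR-TFH cells (0.778 and 0.573). GC-TFH cells, the other follicular cluster, held far less, 0.292 in TGFβR-KO and 0.174 in TGFβR-WT. In TGFβR-CA, the pre-tumorigenic cluster led with 1.72, from 55 UMIs in 20.5% of its 83 cells, of which 3 cells held 31 UMIs.

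*Socs2*, the other STAT5-induced member, was rare, in 82 of 5080 cells. Its 88 UMIs were most frequent in the activated cluster of every group, with levels of 0.114 in TGFβR-KO (14 UMIs), 0.218 and 0.325 in TGFβR-WT (7 and 4 UMIs) and 0.263 in TGFβR-CA cells (14 UMIs). TR-TFH cells, the largest TGFβR-WT and TGFβR-CA cluster, held 0 *Socs2* UMIs in 519 TGFβR-KO and 460 TGFβR-WT cells and 1 in 556 TGFβR-CA cells. The counts of 0 allow levels of up to 0.0156 and 0.0181 per 10000.

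*Pim2* had the smallest ratio of highest to lowest TGFβR-KO cluster among the members, going from 0.217 in cycling cells to 0.661 in CTL cells, the cluster with cytotoxic genes, where 17.1% of cells had it. In TGFβR-WT cells it was highest in GC-TFH cells at 0.482, from 0.634 and 0.166 in the larger and smaller sets, and in TGFβR-CA cells in the migratory cluster at 0.373 from 8 UMIs.

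A total of 4 clusters held at least 20 cells in both TGFβR-WT sets, GC-TFH, TR-TFH, activated and pre-tumorigenic. In these, members were called higher in TGFβR-KO 7 times and lower 1 time. Of the 7490 genes, 1.76% to 4.47% were called higher and 5.90% to 11.5% lower, depending on the cluster. *Socs2*, the lower call, is not among these genes. Among the calls, only *Pim1* in pre-tumorigenic cells had both intervals of its ratio clear of 1.

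In pre-tumorigenic cells, *Pim1* stood at 9.50 in TGFβR-KO against 3.95 and 5.50 in TGFβR-WT and 4.20 in TGFβR-CA. That was 2.40 and 1.73 times the TGFβR-WT sets, and the intervals of 1.72 to 3.46 and 1.42 to 2.12 stood clear of equality. *Socs1* was also called higher there (1.15 against 0.659 and 0.297, the latter both from 6 UMIs), as were *Socs3* (0.701 against 0.439 and 0.0991, from 4 and 2 UMIs) and *Pim3* (1.09 against 0.110 and 0.644, from 1 and 13 UMIs). The intervals of the ratio included 1 for *Socs1* and *Socs3* against the larger set (0.774 to 4.86 and 0.592 to 6.04) and for *Pim3* against the smaller set (0.945 to 3.30). These were 4 of the members, where 4.47% of the 7490 genes were called higher and 11.5% lower. *Cish* did not part the genotypes in these cells, with 1.41 in TGFβR-KO, 1.10 and 1.73 in TGFβR-WT and 1.07 in TGFβR-CA cells. The immediate early genes summed to 490 in TGFβR-KO and to 305 and 336 in the TGFβR-WT sets of this cluster, and their part in the result was not tested.

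In activated cells the order of *Pim1* turned. It stood at 3.33 in TGFβR-KO, 4.91 and 5.70 in TGFβR-WT and 5.41 in TGFβR-CA cells, so that TGFβR-KO was at 0.677 and 0.584 times the TGFβR-WT sets (intervals 0.562 to 0.819 and 0.452 to 0.764), lower than both and past the call against the smaller set only. *Pim1* was detected in 52.2% of activated TGFβR-KO cells (46.6 to 57.8), 70.5% and 82.8% of TGFβR-WT and 70.0% of TGFβR-CA cells, and the first of these intervals lay below those of both TGFβR-WT sets. *Cish* had the same order, with 0.548 in TGFβR-KO against 0.809 and 1.38 in TGFβR-WT and 1.20 in TGFβR-CA cells. *Pim2* was called higher (0.458 against 0.156 and 0.0814, from 5 and 1 UMIs), as was *Socs3* (0.605 against 0.373 and 0.0814, from 12 and 1 UMIs), and *Socs2* was called lower at 0.526 and 0.351 times the TGFβR-WT sets. The interval of the ratio included 1 for *Socs3* against the larger set (0.875 to 3.28), for *Pim2* against the smaller set (0.969 to 226) and for *Socs2* against both (0.199 to 1.54 and 0.110 to 1.47). In this cluster 3.52% of genes were called higher and 8.84% lower.

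In the follicular clusters 1 member was called. *Socs3* was called higher in GC-TFH cells (0.292 in TGFβR-KO, 0.178 and 0.166 in TGFβR-WT from 9 and 4 UMIs, 0.448 in TGFβR-CA), where 3.34% of genes were called higher and 5.90% lower. Both intervals of that ratio included 1 (0.775 to 3.87 and 0.633 to 6.83). No member was called in TR-TFH cells, where 1.76% of genes were called higher and 8.06% lower. *Pim1* was nonetheless below both TGFβR-WT sets in TR-TFH cells, with 0.970 in TGFβR-KO, 1.65 and 1.21 in TGFβR-WT and 0.915 in TGFβR-CA cells. In the remaining clusters only the larger TGFβR-WT set could be used. *Pim1* was 4.28 times that set in cycling cells (4.83 against 1.13, from 17 UMIs) and 0.717 times in migratory cells (2.04 against 2.85), and *Cish* stood in cycling cells at 0.620 against 0.133, the latter from 2 UMIs. Without the 1569 TGFβR-KO, 530 TGFβR-WT and 613 TGFβR-CA cells that held a UMI of another cell type's marker, *Socs1* in pre-tumorigenic cells was the only member still called higher, and *Pim1* was called lower in TR-TFH and activated cells.

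**Figure D4:**
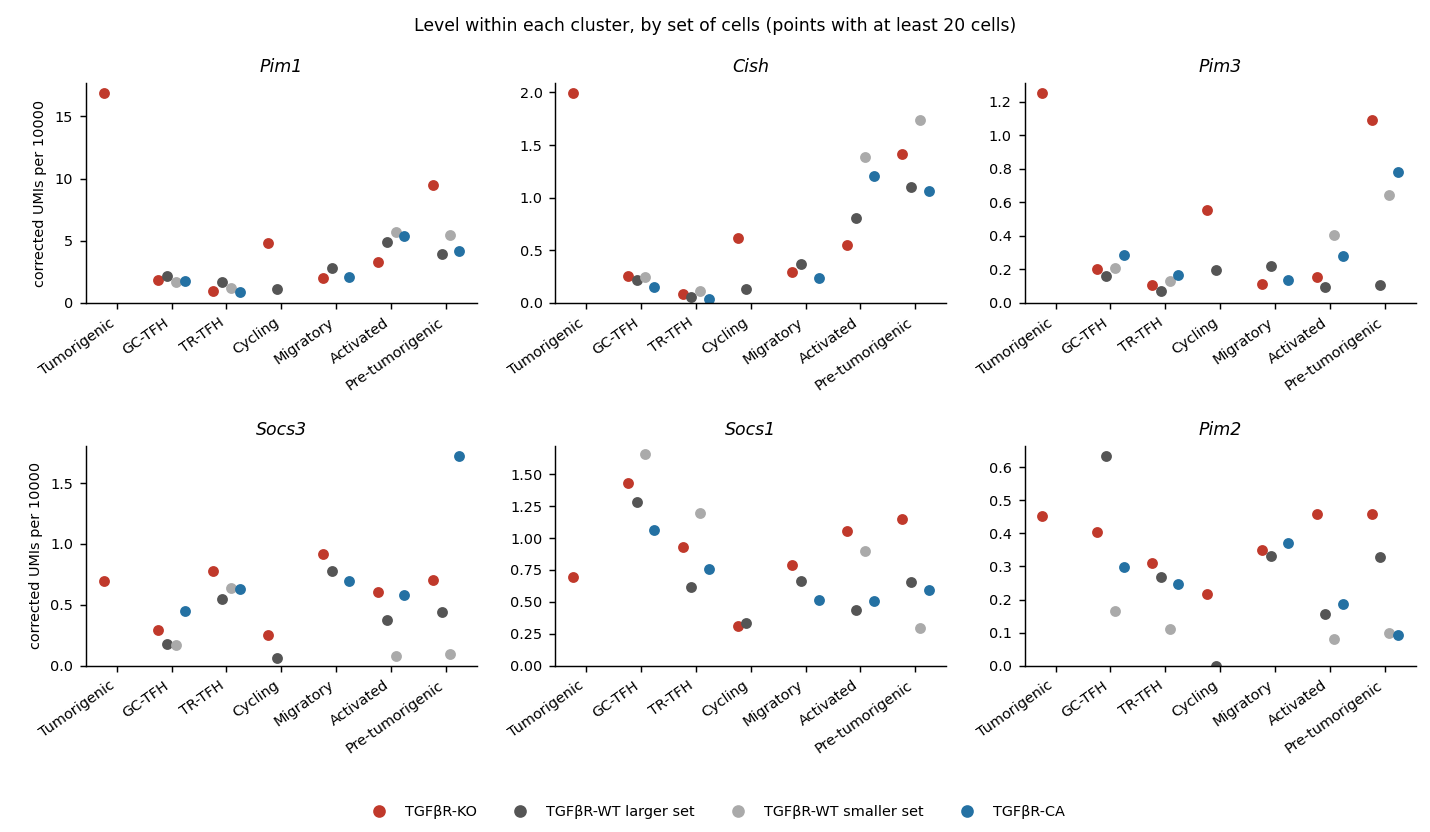
Level of 6 members (corrected UMIs per 10000) in each deposited cluster but CTL, 1 point for each set with at least 20 cells in the cluster, without error bars. *Pim1* of TGFβR-KO lies above the other sets in pre-tumorigenic cells (9.50 against 3.95 to 5.50) and below them in activated cells (3.33 against 4.91 to 5.70), and *Socs3* of TGFβR-CA stands at 1.72 in pre-tumorigenic cells.

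The all-cell level of a member depends on which clusters a genotype holds as well as on the level within them. The tumorigenic and CTL clusters made up 12.1% and 10.8% of TGFβR-KO cells against 0.497% and 1.29% of TGFβR-WT cells, and TR-TFH cells 17.4% against 45.7%. The TGFβR-WT sets differed as well, with pre-tumorigenic cells at 3.81% of the larger (interval 2.52 to 5.49) and 17.45% of the smaller set (13.3 to 22.2). The part of this in the differences of *Cish* and *Pim3* between those sets was not tested. When the 5 clusters with at least 10 cells in every set were given their TGFβR-WT proportions, the TGFβR-KO to TGFβR-WT ratio of *Pim1* went from 1.77 to 0.901, of *Cish* from 1.65 to 0.859 and of *Pim3* from 2.04 to 1.31. This weighting also leaves out the tumorigenic, CTL and cycling clusters, without which the unweighted ratios were 1.07 for *Pim1*, 1.06 for *Cish* and 1.39 for *Pim3*. For *Socs3* the ratio moved from 1.62 to 1.495, for *Pim2* from 1.63 to 1.39 and for *Socs1* from 1.09 to 1.22. Migratory cells, where *Socs3* was highest in both genotypes, were 27.9% of the TGFβR-KO group but 8.84% in TGFβR-WT. *Socs3* was there 1.18 times the larger TGFβR-WT set (interval 0.757 to 1.93). In TR-TFH cells it was 1.43 and 1.22 times the larger and smaller sets (1.06 to 1.96 and 0.839 to 1.83). Its ratios were higher in GC-TFH, activated and pre-tumorigenic cells, where the smaller set held 4, 1 and 2 *Socs3* UMIs. Leaving out the tumorigenic and CTL clusters in all groups brought *Pim1* to 1.13, and leaving out the pre-tumorigenic cluster too brought it to 0.915, while *Socs3* stood at 1.68 and 1.61. In TGFβR-CA cells the same weighting moved *Socs3* from 1.57 to 1.55 and *Pim1* from 0.783 to 0.814. Outside the tumorigenic, CTL and pre-tumorigenic clusters, *Pim1* of TGFβR-KO cells was thus slightly below that of pooled TGFβR-WT cells, and *Socs3* was above it.

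**Figure D5:**
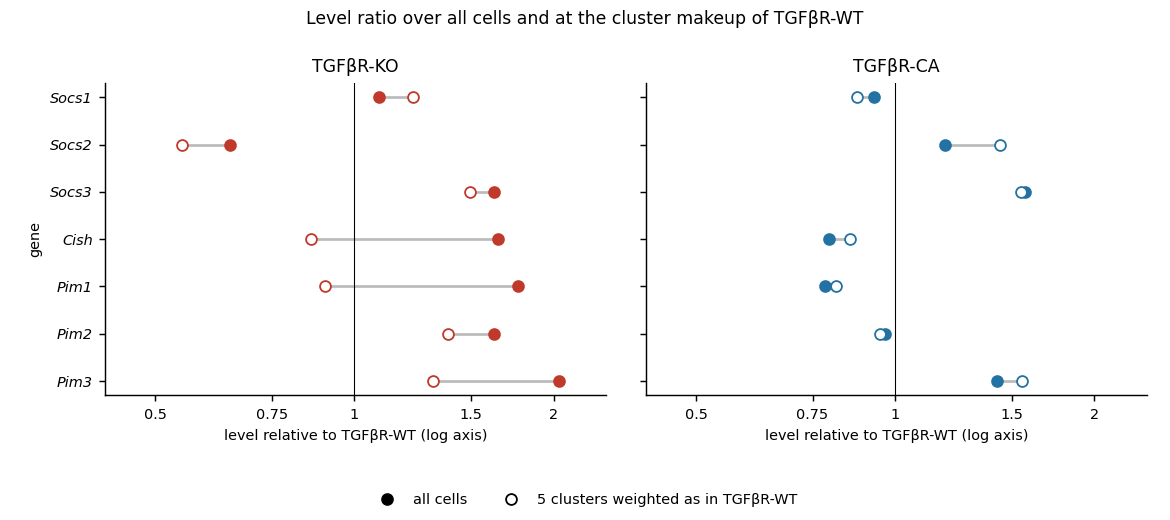
Ratio of each member's level to pooled TGFβR-WT (log axis) in TGFβR-KO and TGFβR-CA, over all cells (filled) and with 5 clusters weighted by their TGFβR-WT proportions (open), without error bars. The ratios of *Pim1* and *Cish* in TGFβR-KO pass from 1.77 and 1.65 to 0.901 and 0.859, and that of *Socs3* goes from 1.62 to 1.495.

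Tumorigenic cells often held several members. In TGFβR-KO, 40.2% of tumorigenic cells had 3 or more of the 7 members and 1.66% had none, against 24.8% and 8.70% of pre-tumorigenic and 4.24% and 43.9% of TR-TFH cells. Whether members met more often than the share of each alone gives was not tested. *Pim1* was so widespread in the tumorigenic cluster that it was detected in 97.6% of the 167 cells with *Cish* and in 93.3% of the 194 cells without, with overlapping intervals. *Cish* was detected in 55.5% of the 110 tumorigenic cells with *Pim3* and in 42.2% of the 251 cells without, with overlapping intervals (45.7 to 64.9 and 36.05 to 48.6). *Socs1* was detected in 66.7% of the 24 GC-TFH cells with *Socs3* and in 32.3% of the 294 cells without (intervals 44.7 to 84.4 and 27.0 to 38.0), and median corrected UMIs per cell were 4073 and 3794 in these cells. The same pair also parted beyond its intervals in CTL (51.6% and 19.3%), activated (52% and 25.75%) and migratory cells (33.5% and 19.9%). Median corrected UMIs with and without *Socs3* were 3942 and 3607 in CTL cells and 4127 and 3714 in activated cells. In TR-TFH (34.0% and 23.1%), pre-tumorigenic (25.5% and 18.0%) and tumorigenic cells (22.9% and 19.9%) the intervals of this pair overlapped. *Pim1* likewise parted with and without *Socs3* in CTL (61.3% and 32.8%), activated (70% and 48.9%) and TR-TFH cells (37.2% and 20.5%). It also parted with and without *Socs1* in activated cells (66.3% and 46.2%). In GC-TFH cells *Pim1* (60% and 23.9%) and *Socs1* (64% and 32.4%) parted with and without *Cish*. The other pairs and clusters looked at overlapped.

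Over the 21 groups of at least 30 cells formed by cluster and set, *Cish* and *Pim1* had the most similar levels of any pair of members (Pearson's r of 0.93 for the log2 level after 0.1 was added). *Pim1* had r of 0.77 and *Cish* of 0.75 with *Pim3*, whereas the other pairs lay between -0.60 (*Socs1* and *Socs2*) and 0.59 (*Socs2* and *Cish*). The groups share sets and clusters, so these are descriptions. Among the 7490 genes, the closest to *Pim1* were *Cish*, *Bhlhe40* (0.92) and *Fosl2* (0.90), and to *Cish* they were *Pim1*, *Slamf1* (0.90) and *Kctd12* (0.90). *Pim3* was closest to *Tnfaip3* (0.93), *Nfkbia* (0.91) and *Hspa1a* (0.90), *Socs1* to *Pou2f2* (0.85), *Coq8a* (0.81) and *Cd81* (0.78), and *Socs2* to *Fgl2* (0.89), *Ppp1r14c* (0.89) and *Cpd* (0.88). *Socs3* and *Pim2* had looser neighbors, *Pnpla7* (0.80), *Fxyd5* (0.76) and *Sptlc2* (0.75) for *Socs3* and *Zfhx2* (0.80), *Apool* (0.77) and *Smndc1* (0.76) for *Pim2*.

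None of the 4 JAK genes and none of the 7 STAT genes was called in TGFβR-KO against both TGFβR-WT sets, and their median log2 ratios to pooled TGFβR-WT cells were -0.59 and -0.03. Of 3 measured further SOCS genes, *Socs5* was called lower (0.0880 against 0.172 and 0.165), and of 11 other inhibitors of the pathway, *Ptpn11*, which encodes the phosphatase SHP2, was called lower (0.767 against 1.48 and 2.11).

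Among 6 receptor genes of the IL-6 and IL-12 family, *Il6ra* (0.132 against 0.658 and 0.420) and *Il6st*, which encodes gp130 (0.340 against 0.878 and 0.940), were called lower, and *Il12rb2*, the signaling chain of the IL-12 receptor, was called higher (0.177 against 0 and 0.0330). In TGFβR-CA cells, where *Socs3* was called higher as in TGFβR-KO, *Il6st* stood at 0.951 and was not called. A link between *Socs3* and *Il6st* was not tested. Of 8 genes for common γ chain receptors, *Il9r* was called higher (0.232 against 0.0918 and 0.0989), and of 4 for interferon and IL-10 receptors, *Ifngr1* was (2.73 against 1.05 and 1.15). Of 7 cytokine genes, 4 were called higher, among them *Csf2*, at least 16.6 times the smaller TGFβR-WT set, which held none, *Ifng* (4.26 against 0.571 and 0.709) and *Il22* (6.76 against 0.858 and 1.43), and *Il21* was called lower (0.428 against 1.22 and 0.734). Their median log2 ratio to pooled TGFβR-WT was 1.48, against -0.17 for all genes.

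Other targets of the same pathways were mixed. Of 16 STAT5 and STAT3 targets, *Gzmb* (1.30 against 0.758 and 0.519) and *Bcl2l1* (0.212 against 0.108 and 0.124) were called higher and *Icos* lower (3.67 against 5.63 and 6.96), with a median log2 ratio of 0.07. Of 11 NF-κB feedback genes, *Tnfaip3* (3.56 against 0.758 and 1.13), *Nfkbiz* (1.72 against 0.650 and 0.470) and *Nfkbia* (6.33 against 3.73 and 4.03) were called higher and *Nfkb1* lower. Of 11 genes whose products PIM kinases phosphorylate, *Cdkn1a*, the cell cycle inhibitor p21, was called higher (0.503 against 0.136 and 0.0412) and *Cxcr4* lower (0.423 against 0.954 and 1.46). Of 18 immediate early genes, 4 were called higher, led by *Fosl2*, *Hspa1a* and *Fosb*, and of 9 TGFβ response genes, 5 were called lower, led by *Pmepa1*, *Ldlrad4* and *Skil*.

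In the tumorigenic cluster against the other TGFβR-KO cells, 7 of the 11 NF-κB feedback genes and 14 of the 18 immediate early genes were at least 1.5 times higher, and 5 of the 16 STAT5 and STAT3 targets were higher and 3 lower, where 6.42% of all genes were higher and 26.0% lower. *Il4ra* (3.91 times) and *Il21r* (2.02 times) were among 4 common γ chain receptor genes that were higher there, while *Il6ra* and *Il6st* were at 0.0475 and 0.130 times the other cells. In TGFβR-CA cells few genes of these lists were called, *Il2rg* higher (0.751 against 0.407 and 0.239) and *Ifng*, *Fos* and *Itgae* lower.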

How the data were processed

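Droplet-based 3′ scRNA-seq was measured in 4 samples, and 1 table with all cells was used. According to the submitters' processing notes and the methods, the authors counted UMIs with Cell Ranger 3.1.0 on mm10, filtered cells on detected genes (1000 to 5000) and on mitochondrial UMIs (below 10%), applied SCTransform, integrated 3000 features, clustered with Seurat and discarded γδ T cells and epithelial cells. Each deposited value is a natural log, taken of the corrected UMI number plus 1, and all 7880276 values above 0 became whole within 1e-06 once the log was undone. Corrected UMIs are no raw counts, no count model was used for them, and the original depth of a cell is not known from them. The correction brings cells to a common depth, so differences in depth can remain in the share of cells at 0. No removal of doublets is stated in the sources used here and none were called.

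From the deposited values, levels per 10000 corrected UMIs were summed over the cells of a group, with Clopper-Pearson intervals for shares and conditional binomial intervals for ratios (scipy 1.17.1). Cells were grouped by their deposited condition and cluster, and a call needed a ratio of 1.5 against both TGFβR-WT sets. A sum of 0 was set to 3 UMIs. The background was counted over genes with at least 200 corrected UMIs. Steps were run in Python 3.11.15 with numpy 2.4.6, pandas 2.3.3 and matplotlib 3.10.9, and the size call was tested on simulated data. The members and gene lists were chosen with earlier results of these data known. Named genes are the members, for each list up to 3 with the largest ratio past the call in each direction, and for each member the 3 most alike. *Il4ra*, *Il21r*, *Itgae*, *Fos*, *Il2rg* and the receptor genes given for the tumorigenic cluster were named after their values were seen. Alternatives changed the TGFβR-WT set, the cells kept, the denominator, the averaging, the cluster weights and the gene minimum. The results of 2 gene lists are not reported here.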

Additional observations from a re-analysis of the deposited data

Results flagged for a closer look

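*Pim1* differed between TGFβR-KO and TGFβR-WT in opposite directions in different clusters. It was 2.40 times the larger and 1.73 times the smaller TGFβR-WT set in pre-tumorigenic cells, and below both sets in TR-TFH cells (0.588 and 0.798 times) and in activated cells (0.677 and 0.584 times). The difference between the clusters was not tested, since TGFβR-KO is 1 sample and the TGFβR-WT cells could not be assigned to their 2 samples. Immediate early genes, which summed to 490 per 10000 in pre-tumorigenic TGFβR-KO cells and to 53.0 in activated ones, moved with this contrast, and their part in it was not tested.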

How the results depend on the processing

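Of 64 counts of called members under an alternative, 46 were unchanged or within 1.5 times. This tally holds counts of 0 that stayed 0 and alternatives that left out few cells, so it does not measure how firm the calls are. The limit of 5% mitochondrial UMIs left out 2 TGFβR-KO, 1 TGFβR-WT and 0 TGFβR-CA cells. For TGFβR-KO over all cells, 2 members were higher and 0 lower. Against the larger TGFβR-WT set alone, 4 were higher (*Socs3*, *Cish*, *Pim1*, *Pim3*), and against the smaller set alone 3 were higher (*Socs3*, *Pim1*, *Pim2*) and 1 lower (*Socs2*). The number higher was 1 without cells that held another cell type's marker (*Pim1*), 1 by shares of cells above 0 (*Socs3*), 0 with 5 clusters weighted as in TGFβR-WT, which also leaves out the tumorigenic, CTL and cycling clusters, and, in alternatives chosen after seeing the data, 1 without the tumorigenic and CTL clusters, 1 when the cycling or the pre-tumorigenic cluster was also left out (*Socs3* each time). The *Pim1* ratio was 1.13 without the tumorigenic and CTL clusters and 1.07 without the cycling cluster too, and turned below 1 under the weighting (0.901) and without the tumorigenic, CTL and pre-tumorigenic clusters (0.915). For TGFβR-CA, the 1 member called higher became 0 without cells that share a barcode, without cells with another marker, under the weighting, by shares and without the tumorigenic, CTL and pre-tumorigenic clusters. It became 2 against the larger set alone (*Socs3*, *Pim3*) and 2 against the smaller set alone (*Socs3*, *Pim2*), where 1 was lower (*Cish*). Within clusters, 7 calls higher and 1 lower became 1 and 2 without cells with another marker, which removes more than 5 in every 10 cells. The 3 members higher in the tumorigenic cluster were the same number in all its alternatives. A denominator without mitochondrial, ribosomal protein, *Malat1*, *Gm42418* and *AY036118* UMIs moved the median log2 ratio of all genes from -0.17 to -0.11 in TGFβR-KO and from -0.11 to 0.00 in TGFβR-CA, and changed no count. With at least 50 corrected UMIs per gene, the background was 3.93% higher and 7.59% lower in TGFβR-KO and 2.87% and 4.12% in TGFβR-CA. Apart from the alternatives' own construction, the causes were not tested. Depth limits *Socs2*, and within clusters *Pim2* and *Socs3* in the smaller and *Pim3* in the larger TGFβR-WT set, where a cluster held as few as 1 UMI. *Pim3* was also thin in the smaller set, with 5 UMIs in activated cells.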
